A study of Mus musculus with 8 samples.

Results

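The Kruppel-like factors described here are 10 transcription factor genes, Klf2, Klf3, Klf4, Klf6, Klf9, Klf10, Klf11, Klf12, Klf13 and Klf15, out of 17 Klf genes and 22183 genes in the deposited table. The members were chosen from measured values of these same libraries, so their levels, fold changes and threshold calls are a description and carry no test. RNA was sequenced from the livers of C57 mice in 8 libraries of 3 groups. CTRL (n = 2) is the group labelled control. The labels do not say whether it received PBS, and their treatment text is shared by all groups. APAP_PBS (n = 3) was given 400 mg/kg APAP (acetaminophen, which injures hepatocytes) into the peritoneum, together with PBS. APAP_MSC (n = 3) was given the same dose and, after 4 h, an injection of MSCs (mesenchymal stem or stromal cells) into a tail vein. Collection was 24 h after the injury model was made. The species and tissue that the MSCs came from are not stated in the labels. Nor do the labels say that the libraries of a group are separate animals, so p-values measure the spread between these libraries, which may be technical.

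Kruppel-like factors bind GC-rich and CACCC sequences through zinc fingers at the C terminus, while the rest of the protein recruits coactivators or repressors. In the liver, members of the family respond to injury, to hormones and to feeding, and other members act mainly in the endothelium. Some are repressors that recruit CtBP or Sin3A, and others, such as Klf15, activate metabolic genes.

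The libraries held 16261200 to 24516500 estimated counts, at which 3 counts equal 0.122 to 0.184 CPM (counts scaled to library size and the trimmed mean of M values, TMM). In every library all 10 members had counts, from 9 to 33 for Klf4 up to 893 to 2699 for Klf15, and all 10 passed the low-count filter that 12722 genes passed. The summed level of 8 hepatocyte markers was 86500 to 126000 CPM, with none at 0. APAP_MSC replicate 2 stood apart from the other APAP libraries. On the first principal component (44.4% of the variance) it lay at -16.3, against 14.9 to 36.5 for the other APAP libraries and -47.6 and -60.2 for CTRL. In bulk tissue, fewer cells of a type and less RNA per cell cannot be told apart.

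Klf6, an early-response factor induced by tissue injury, differed most among the members between APAP_PBS and CTRL. Klf6 (ENSMUSG00000000078) lies on chromosome 13 of GRCm38 at 5861482 to 5870394, plus strand, by the GENCODE M21 annotation. Its level was 6.55 and 7.61 CPM in the CTRL libraries. It was 35.6, 30.2 and 20.1 CPM in APAP_PBS replicates 1, 2 and 3, and 13.8, 7.69 and 16.2 CPM in the APAP_MSC replicates. All APAP_PBS libraries were above all others, while APAP_MSC replicate 2 was nearly at the CTRL level. The group levels were 7.08 ± 0.752 (SD, n = 2), 28.6 ± 7.86 (SD, n = 3) and 12.6 ± 4.39 CPM (SD, n = 3), so APAP_PBS was 4.03-fold above CTRL and 2.28-fold above APAP_MSC. The log2 fold change was 2.01 ± 0.35 (SE) for APAP_PBS over CTRL, -1.19 ± 0.29 for APAP_MSC over APAP_PBS and 0.82 ± 0.35 for APAP_MSC over CTRL. The first of these passed the threshold over all genes (edgeR, adjusted p under 0.05), although not without CTRL replicate 1 (1.92) or without CTRL replicate 2 (2.14). The second did not pass in edgeR and passed in DESeq2, at -1.19. The third passed when APAP_MSC replicate 2 was left out, at 1.09.

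Klf3, a repressor that works through CtBP, shared with Klf6 a level in APAP_PBS that lay above both other groups. Klf3 (ENSMUSG00000029178; chromosome 5, 64803388 to 64832901, plus strand) was at 40.2 and 48.0 CPM in CTRL. Its level was 79.0, 59.8 and 62.1 CPM in APAP_PBS and 44.5, 43.4 and 46.3 CPM in APAP_MSC. The APAP_MSC libraries all lay within the CTRL range. The log2 fold change was 0.60 ± 0.14 (SE) for APAP_PBS over CTRL, -0.58 ± 0.12 for APAP_MSC over APAP_PBS and 0.02 ± 0.14 for APAP_MSC over CTRL. APAP_PBS replicate 1 was the highest library, and without it the first value was 0.47 and no longer passed; without CTRL replicate 1 it was 0.48 and did not pass either. As for Klf6, the difference between APAP_MSC and APAP_PBS passed in DESeq2 (-0.58) and not in edgeR. Exons of Klf3 overlap those of Gm20033 on the opposite strand. Whether the counting used strand is not stated, so reads of this pair might not be told apart.

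**Figure D1:**
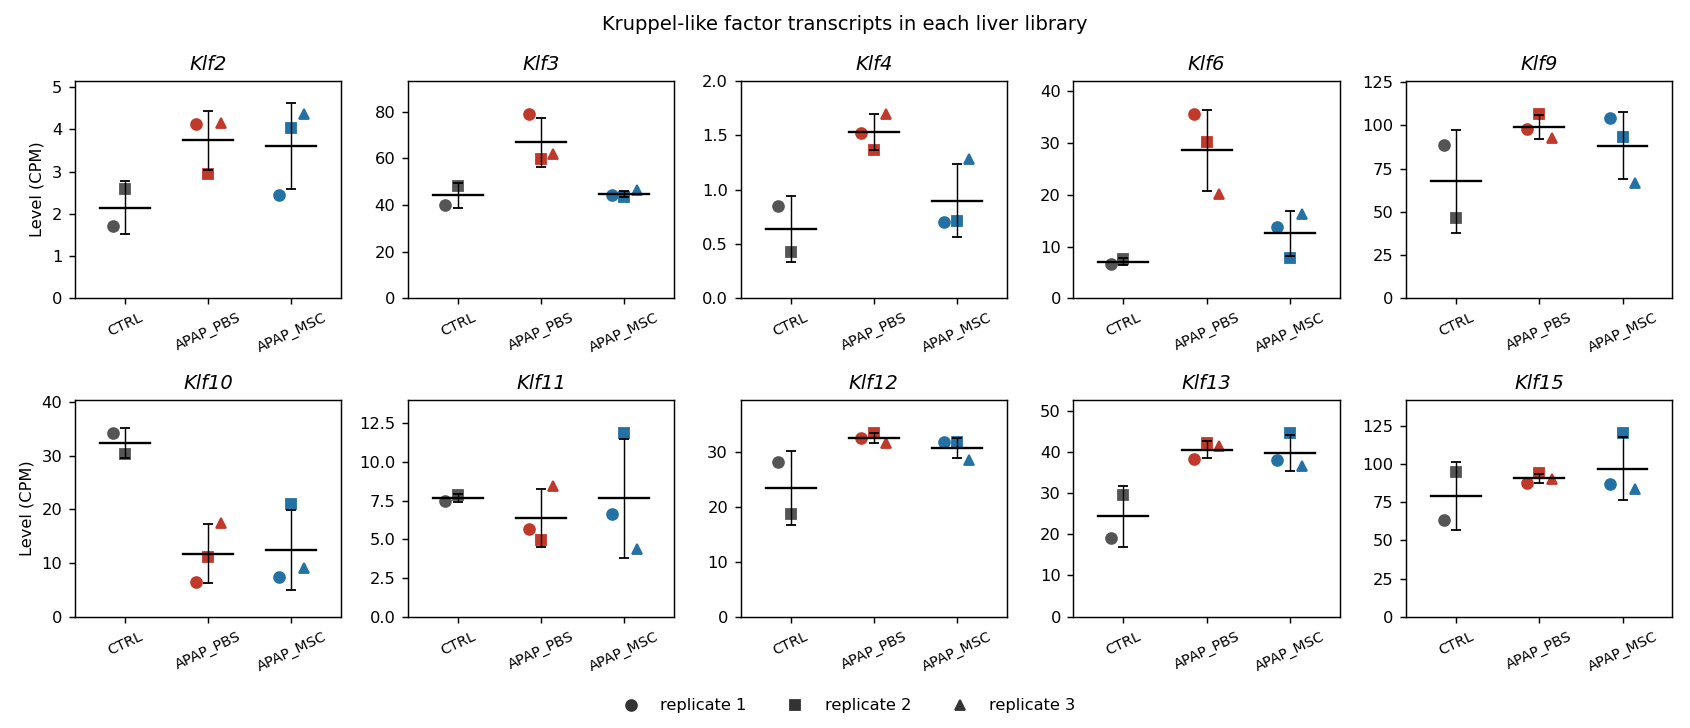
Level of each Kruppel-like factor in every library (y axis, CPM, linear from 0, a separate scale per gene) by group (x axis). Points are libraries, horizontal lines are group means and bars are SD (n = 2, 3 and 3). Klf6 and Klf3 are highest in the 3 APAP_PBS libraries, Klf13 is higher in both APAP groups than in CTRL, and Klf10 is lower in both.

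Klf13, a factor that activates the chemokine gene Ccl5 in T cells, had a like level in both APAP groups. Klf13 (ENSMUSG00000052040; chromosome 7, 63886351 to 63938915, minus strand) was at 19.2 and 29.6 CPM in CTRL, at 38.2, 42.1 and 41.3 CPM in APAP_PBS and at 38.0, 44.6 and 36.5 CPM in APAP_MSC. Every APAP library was above both CTRL libraries, and the APAP groups overlapped. The log2 fold change over CTRL was 0.72 ± 0.17 (SE) in APAP_PBS and 0.69 ± 0.17 in APAP_MSC, and -0.03 ± 0.14 between the APAP groups. Both differences from CTRL passed the threshold. Without CTRL replicate 1, the lower of the CTRL libraries, they were 0.46 and 0.43 and did not pass, and without CTRL replicate 2 they were 1.09 and 1.07 and passed. The first was also lost without any 1 of the APAP_PBS libraries, and the second without any 1 of the 6 APAP libraries.

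The start regions of these 3 genes show how differently their promoters are built. They are the members that passed the threshold between APAP_PBS and CTRL. The sequences are from RefSeq on GRCm38.p6 and run from 250 bases before to 50 bases after the start used there. That start can differ from the start of the GENCODE gene given above. The GENCODE gene of Klf3 begins at 64803388, so most of the Klf3 window lies inside it. They were chosen to set the binding letters of the family itself beside its members. Capitals mark CACCC and GGGCGG, on either strand.
Klf6 promoter (chr13:5861239-5861538, plus strand): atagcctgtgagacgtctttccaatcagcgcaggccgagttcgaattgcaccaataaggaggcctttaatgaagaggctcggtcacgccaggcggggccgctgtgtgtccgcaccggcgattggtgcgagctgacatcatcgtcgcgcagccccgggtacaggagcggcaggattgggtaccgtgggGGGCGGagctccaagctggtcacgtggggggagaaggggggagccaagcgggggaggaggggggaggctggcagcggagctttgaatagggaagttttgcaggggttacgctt
Klf3 promoter (chr5:64803271-64803570, plus strand): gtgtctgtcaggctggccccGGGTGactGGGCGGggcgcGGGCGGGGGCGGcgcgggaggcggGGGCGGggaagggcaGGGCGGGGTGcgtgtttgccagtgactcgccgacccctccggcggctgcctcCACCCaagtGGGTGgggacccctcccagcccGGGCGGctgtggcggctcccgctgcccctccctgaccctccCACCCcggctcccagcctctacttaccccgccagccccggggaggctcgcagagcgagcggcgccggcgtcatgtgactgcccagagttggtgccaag
Klf13 promoter (chr7:63938866-63939165, minus strand): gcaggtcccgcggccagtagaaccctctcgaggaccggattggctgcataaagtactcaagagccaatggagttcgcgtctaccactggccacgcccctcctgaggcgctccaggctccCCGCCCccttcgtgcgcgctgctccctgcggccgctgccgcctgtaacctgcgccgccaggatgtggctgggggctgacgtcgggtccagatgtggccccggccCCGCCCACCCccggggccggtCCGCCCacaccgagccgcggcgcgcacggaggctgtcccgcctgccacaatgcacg

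The Klf3 window holds 5 matches to CACCC and 6 to GGGCGG, the Klf13 window 1 and 3, and the Klf6 window 0 and 1. Matches to the 2 motifs can overlap, as they do by 1 letter in Klf3 and Klf13. The Klf6 window has 4 matches to CCAAT, the letters bound by NF-Y, and 1 to the E-box CACGTG. The Klf13 window has 2 and 0, and the Klf3 window has neither. CCAAT is also in the windows of Klf9, Klf11 and Klf15, and CACGTG in those of Klf4, Klf11 and Klf15. Of 32851 promoters in the same table, searched on both strands, 57.5% hold CACCC, 35.7% GGGCGG, 37.4% CCAAT and 7.15% CACGTG. GC content was 63% for Klf6, 76.7% for Klf3 and 72% for Klf13, against a median of 52.7% over all promoters. The table has entries for 9 of the 10 members, not for Klf10. The letters TGANTCA, with any base at N, are in 7.81% of promoters and, among the 9, in that of Klf9 alone. They are looser than the AP-1 consensus, TGA(C/G)TCA. The Klf9 match reads TGAATCA, which lies outside that consensus.

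Klf10 and Klf11, which TGF-beta induces early and which repress through Sin3A, were the members with negative values against CTRL. Klf10 was at 34.3 and 30.4 CPM in CTRL. Its level was 6.56, 11.1 and 17.6 CPM in APAP_PBS and 7.41, 21.0 and 9.03 CPM in APAP_MSC. All 6 APAP libraries were below both CTRL libraries, and the APAP groups overlapped. The log2 fold change over CTRL was -1.46 ± 0.53 (SE) in APAP_PBS and -1.37 ± 0.53 in APAP_MSC, and neither passed the threshold. With APAP_MSC replicate 2 left out, the Klf10 library nearest to CTRL, the values were -1.46 and -1.96 and both passed. Klf11 was at 7.48 and 7.85 CPM in CTRL, at 4.93 to 8.48 CPM in APAP_PBS and at 4.40 to 11.9 CPM in APAP_MSC. The 3 groups overlapped, and the highest Klf11 library was again APAP_MSC replicate 2.

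Klf2 and Klf4, factors that shear stress induces in the endothelium, had the fewest counts of the members. Klf2 was at 1.71 and 2.59 CPM in CTRL. It was at 4.13, 2.94 and 4.15 CPM in APAP_PBS and at 2.45, 4.03 and 4.36 CPM in APAP_MSC. The APAP_PBS libraries lay above CTRL, with a log2 fold change of 0.77 ± 0.32 (SE) that did not pass, and APAP_MSC overlapped both. It was 0.53 without CTRL replicate 1 and 1.13 without CTRL replicate 2, and passed in neither case; on the log2(FPKM + 0.1) scale it was 0.98 and passed (limma, adjusted p = 0.0493). Klf4 was at 0.854 and 0.423 CPM in CTRL, at 1.53, 1.37 and 1.70 CPM in APAP_PBS and at 0.700, 0.716 and 1.28 CPM in APAP_MSC. All Klf4 values in CPM in APAP_PBS were above the other groups, but a library held at most 33 counts. The log2 fold change of Klf4 was 1.29 ± 0.48 over CTRL and -0.74 ± 0.39 for APAP_MSC over APAP_PBS. Neither passed the threshold. The first was 1.84 without CTRL replicate 1, 0.84 without CTRL replicate 2, 0.74 on the log2(FPKM + 0.1) scale and 0.24 on the log2(FPKM + 1) scale, and by FPKM CTRL replicate 1 (0.559) lay above APAP_PBS replicate 1 (0.539). The summed level of 10 endothelial markers was 252 to 323 CPM in CTRL, 294 to 396 in APAP_PBS and 318 to 402 in APAP_MSC; their part in these values was not tested.

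Klf9, which glucocorticoid and thyroid hormone induce, and Klf15, which drives amino acid breakdown and gluconeogenesis in the liver, were the most abundant members. Klf9 was at 88.7 and 46.4 CPM in CTRL, at 98.0, 106 and 92.8 CPM in APAP_PBS and at 104, 93.5 and 66.7 CPM in APAP_MSC. The CTRL libraries thus differed by 1.91-fold, against 1.15-fold for highest over lowest in APAP_PBS. The log2 fold change of APAP_PBS over CTRL, 0.56 ± 0.27 (SE), did not pass; it was 1.10 and passed without CTRL replicate 1, and 0.17 without CTRL replicate 2. The Klf9 value passed in limma on the log2(FPKM + 1) and log2(FPKM + 0.1) scales, at 0.81 and 0.86. Klf15 was at 63.6 and 95.2 CPM in CTRL, at 88.0 to 94.1 CPM in APAP_PBS and at 83.9 to 121 CPM in APAP_MSC, so that its groups overlapped. Klf12, a CtBP-recruiting repressor of the AP-2 alpha gene, was at 28.1 and 18.6 CPM in CTRL, at 31.6 to 33.5 CPM in APAP_PBS and at 28.6 to 31.9 CPM in APAP_MSC. Every APAP library was above CTRL for Klf12. Its log2 fold change over CTRL was 0.49 ± 0.16 in APAP_PBS and 0.40 ± 0.16 in APAP_MSC, and neither passed. On the log2(FPKM + 1) and log2(FPKM + 0.1) scales the APAP_PBS value was 0.56 and 0.67 and passed in limma. With library size alone the 2 differences were 0.74 and 0.60 and both passed. Without CTRL replicate 1 they were 0.81 and 0.73 and both passed, and without CTRL replicate 2 they were 0.22 and 0.14 and neither did.

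**Figure D2:**
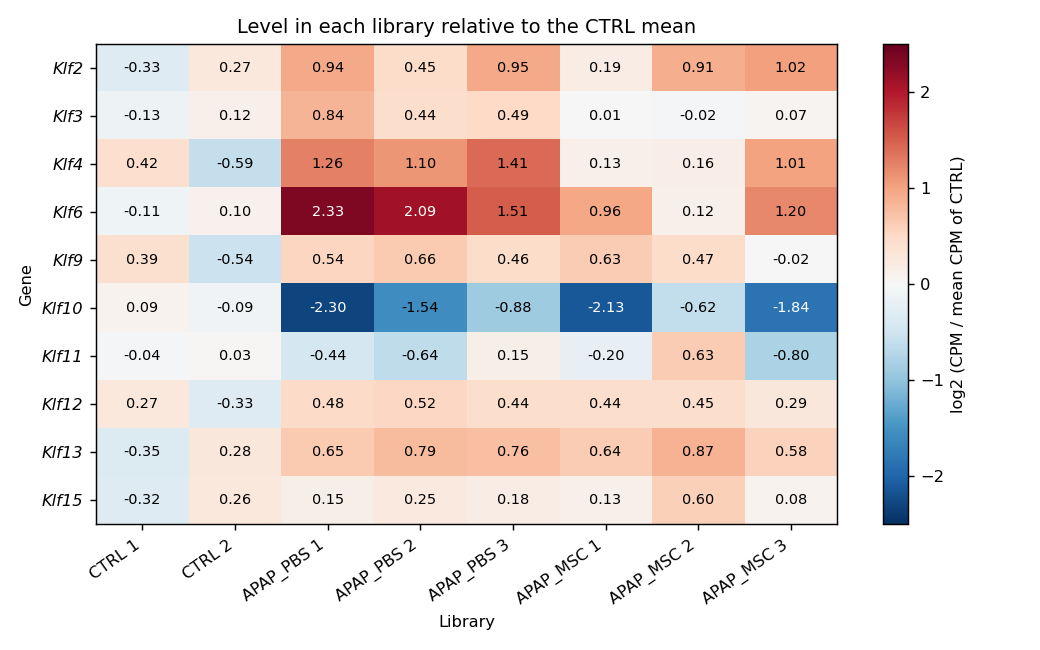
Level of each member (rows) in each library (columns) as log2 of its CPM over the mean CPM of CTRL, printed in each cell and shown in colour from -2.5 (blue) to 2.5 (red). Klf6 runs from 1.51 to 2.33 in APAP_PBS and from 0.12 to 1.20 in APAP_MSC, with the lowest value in replicate 2, and Klf10 from -2.30 to -0.62 over the APAP libraries.

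Between APAP_PBS and CTRL, which asks what APAP did to the liver, 3 of the 10 members passed the threshold as higher (Klf3, Klf6 and Klf13) and 0 as lower. Over all 12722 genes 4.29% passed as higher and 5.97% as lower. The libraries did not overlap for 7 members that were higher and 1 that was lower, against 25% and 22.6% of all genes. At an unadjusted p under 0.05, 6 members were higher and 1 was lower, against 13.4% and 13.3% of all genes, and DESeq2 also called 0 lower. The median log2 fold change was 0.58 over the members and 0.03 over all genes. Both comparisons with CTRL use the same 2 CTRL libraries.

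Between APAP_MSC and APAP_PBS, the comparison of the MSC injection, 0 members passed in edgeR in either direction, as did 0% of all genes as higher and 0.00786% as lower. DESeq2 called 2 members lower, Klf3 and Klf6, and 0 higher, against 24 lower and 17 higher of 12722 genes. The same 2 were lower at an unadjusted edgeR p under 0.05 and 0 were higher, against 3.69% and 2.92% of all genes. Groups did not overlap for 3 members that were lower (Klf3, Klf4 and Klf6) and for 0 that were higher, against 7.04% and 6.81% of all genes. The other 7 members lay between -0.17 and 0.27 on the log2 scale, with overlapping groups. The member median was -0.06, against -0.01 over all genes.

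Between APAP_MSC and CTRL, 1 of 10 members passed as higher (Klf13) and 0 as lower, with 2.52% and 3.32% of all genes. Groups did not overlap for 3 members that were higher (Klf6, Klf12 and Klf13) and 1 that was lower (Klf10), against 17.8% and 17.7% of all genes. At an unadjusted p under 0.05, 4 were higher and 1 lower, against 10.6% and 11.1% of all genes, and DESeq2 called 0 lower. The member median was 0.39, against 0.01 over all genes.

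**Figure D3:**
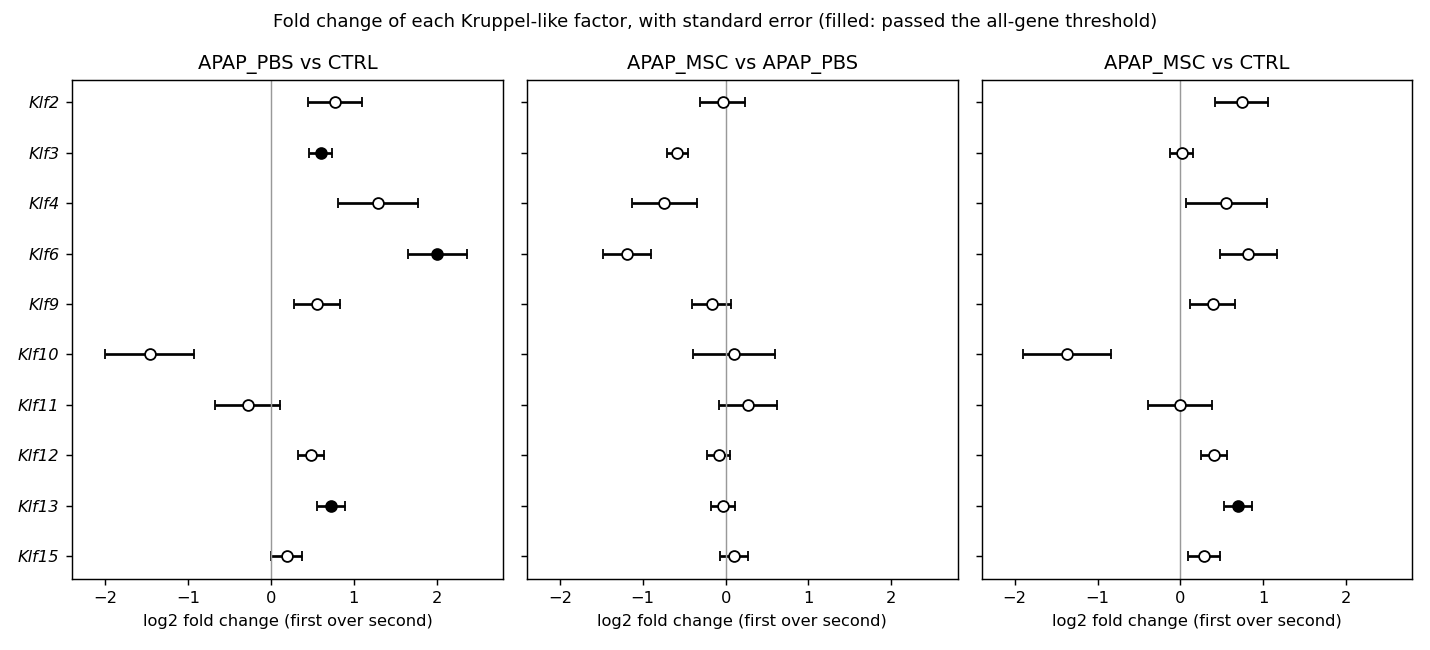
Log2 fold change of each member (x axis, first group over second) with its SE as the bar, in the 3 comparisons. Filled points passed the threshold over all genes, which were Klf3, Klf6 and Klf13 for APAP_PBS over CTRL, none for APAP_MSC over APAP_PBS, and Klf13 for APAP_MSC over CTRL; the comparisons share groups.

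Levels of different genes can be compared only per length, for which the deposited FPKM values were used. By mean FPKM the order began with Klf15, Klf9 and Klf3 in all 3 groups, and Klf4 came last. In CTRL the FPKM was 30.8 ± 10.3 (SD, n = 2) for Klf15, 13.3 ± 5.08 for Klf9 and 9.60 ± 2.02 for Klf3, and the ranges of Klf9 and Klf3 overlapped. Klf6 had rank 8 in CTRL at 1.58 ± 0.158 FPKM, rank 4 in APAP_PBS at 8.66 ± 2.14 FPKM (n = 3) and rank 7 in APAP_MSC at 3.74 ± 1.74 FPKM (n = 3). Its neighbours were not apart in every group: in CTRL its range overlapped that of Klf11, in APAP_PBS that of Klf13, and in APAP_MSC those of Klf10 and Klf2. Klf10 had rank 4 in CTRL at 9.49 ± 0.210 FPKM, rank 7 in APAP_PBS at 4.06 ± 1.83 FPKM and rank 6 in APAP_MSC at 4.35 ± 2.13 FPKM. Klf6 made up 2.11% and 2.09% of the members' summed FPKM in CTRL, 5.82% to 8.93% in APAP_PBS and 1.64% to 5.10% in APAP_MSC. For Klf6 the ratio of deposited count to FPKM, at equal depth, differed by up to 1.44-fold between libraries, against 1.03-fold for the median gene of 5616 with at least 200 counts. For APAP_PBS over CTRL, the log2 fold change of Klf6 was 2.36 on the log2(FPKM + 0.1) scale, 2.25 from counts with library size alone and 2.01 from counts with TMM, and all 3 passed. The median of all genes was 0.26, 0.27 and 0.03 on the same scales. The part of the length ratio in the fold change was not tested.

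**Figure D4:**
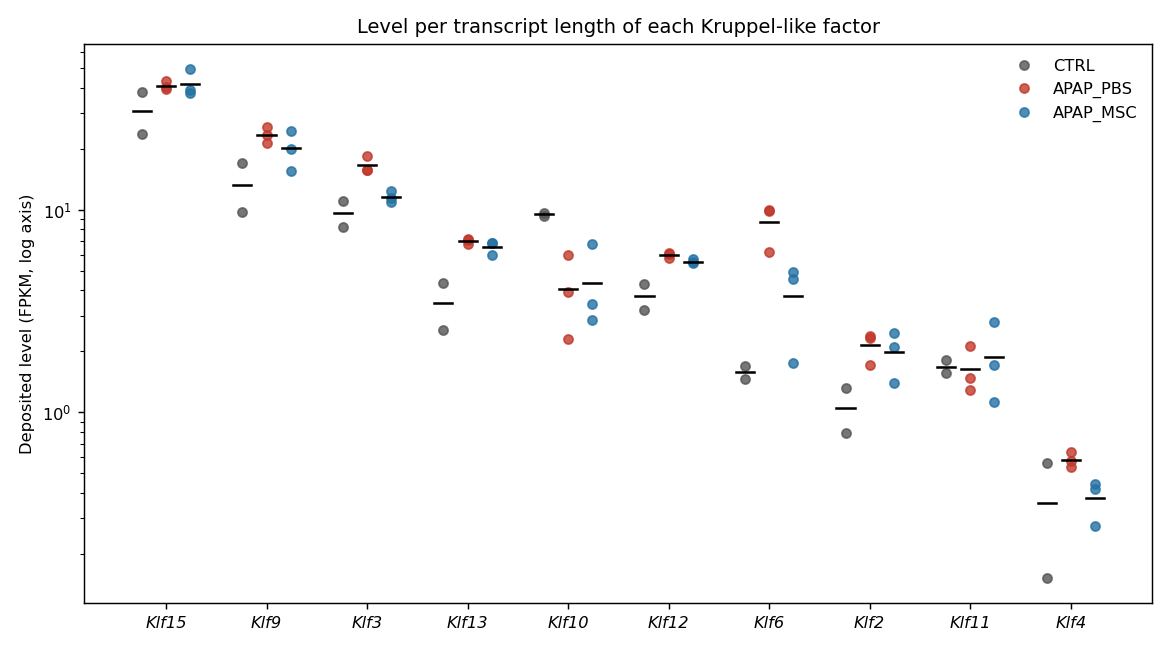
Deposited FPKM of each member in each library (y axis, log scale) by gene (x axis, ordered by mean over the libraries); points are libraries, colours are groups and lines are group means. Klf6 moves from 1.58 in CTRL to 8.66 in APAP_PBS, past Klf12 and Klf13, and lies at 3.74 in APAP_MSC.

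Over the 8 libraries, genes among the 5 most like Klf6 in log2 CPM were Iqgap1 (Pearson r 0.964), Ccdc71l (0.961), Cebpb (0.960) and Ndc1 (0.958), of 8626 genes with at least 5 CPM on average. Those least like it were Oat (-0.988), Ropn1l (-0.978), Mxd4 (-0.974), F11 (-0.971) and Fam207a (-0.971). The points share the group structure and the scaling of each library, so these values describe likeness only. Cebpb, a transcription factor of the acute phase response, was at 45.9 and 44.9 CPM in CTRL, at 123, 83.2 and 80.7 CPM in APAP_PBS and at 55.4, 43.0 and 65.9 CPM in APAP_MSC. Oat, the ornithine aminotransferase, ran the other way, at 359 and 310 CPM in CTRL, 60.4, 96.0 and 120 CPM in APAP_PBS and 187, 335 and 131 CPM in APAP_MSC. For both genes, as for Klf6, APAP_MSC replicate 2 lay nearest to CTRL of the 6 APAP libraries. Among the members, r with Klf6 was 0.87 for Klf3, 0.79 for Klf4, -0.79 for Klf10 and 0.07 for Klf15.

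The remaining genes of the family and their partners showed few calls. Of 16 other Klf and Sp factors 9 were tested, Klf1, Klf5, Klf7, Klf16 and Sp1 to Sp5. In DESeq2 and in the edgeR fit of all libraries, 0 passed in any comparison. At an unadjusted p under 0.05 there was 1, Klf16, at 0.67 ± 0.28 (SE) for APAP_PBS over CTRL. With library size alone Klf16 was at 0.91 and passed. Klf8, Klf14, Klf17 and Sp6 to Sp9 did not pass the low-count filter. Klf5 was at 4.77 and 0.235 CPM in CTRL replicates 1 and 2, the latter from 5 counts. Without CTRL replicate 1 the log2 fold change of Klf5 for APAP_PBS over CTRL was 3.80. Of 13 cofactors and ubiquitin ligases that act on these factors, such as Ctbp1 and Sin3a, 0 passed in the edgeR fit of all libraries. At an unadjusted p under 0.05 there were 0, 0 and 2 in the 3 comparisons. DESeq2 called 1 lower for APAP_MSC over CTRL, the deacetylase gene Hdac2 (-0.47), which also passed in edgeR without APAP_MSC replicate 2 (-0.50). Ctbp1 passed as higher in APAP_PBS over CTRL with library size alone (0.47) and in limma on both FPKM scales (0.60 and 0.64). The ERK5, MEF2 and CCM genes lie upstream of Klf2 and Klf4 in the endothelium. Of these 12, 0 passed in DESeq2 or in the edgeR fit of all libraries, with 2, 0 and 1 at an unadjusted p under 0.05. Mapk7, the gene of ERK5, passed as higher than CTRL in APAP_PBS with the 2 groups alone (edgeR, 1.36). Without APAP_MSC replicate 2 it passed in APAP_PBS (1.38) and in APAP_MSC (1.46). Over all genes, 13.4%, 2.92% and 10.6% were higher at an unadjusted p under 0.05 in the 3 comparisons, and 13.3%, 3.69% and 11.1% lower.

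Endothelial genes that Klf2 and Klf4 control had 4 of 10 higher and 0 lower in APAP_PBS over CTRL, against 4.29% and 5.97% of all genes, with a median log2 fold change of 1.24 against 0.03. Thbd, the anticoagulant thrombomodulin that Klf2 induces, was at 2.04 ± 0.0309 CPM in CTRL (SD, n = 2) and at 8.67 ± 2.64 CPM in APAP_PBS (SD, n = 3), a rise by 2.08 ± 0.40 on the log2 scale (edgeR, adjusted p = 0.0113). The gap junction gene Gja4 rose by 1.29 ± 0.28 (adjusted p = 0.0148) and Vcam1, an adhesion molecule that Klf2 represses, by 1.28 ± 0.27 (adjusted p = 0.0181). Sele, E-selectin, rose to 1.67 ± 1.15 CPM from 0.0826 ± 0.0161 CPM (adjusted p = 0.0176), a CTRL level below 3 counts for which no fold is given. The group thus held both genes that these factors induce and genes that they repress. Inflammatory signals are also known to induce Vcam1 and Sele. Over APAP_PBS, 0 of the 10 passed in APAP_MSC by edgeR or DESeq2. At an unadjusted p under 0.05, 4 were lower and 0 higher, against 3.69% and 2.92% of all genes. In APAP_MSC over CTRL only Gja4 passed in the edgeR fit of all libraries, at 1.33 ± 0.28 (adjusted p = 0.0199), with 4 passing in DESeq2. Without either CTRL library none of Thbd, Gja4, Vcam1 and Sele passed, at 2.07 to 2.10 for Thbd, 1.17 to 1.41 for Gja4 and 1.24 to 1.33 for Vcam1. Gja4 and Vcam1 were also lost without APAP_PBS replicate 3 (1.20 and 1.23) and Sele without APAP_PBS replicate 1. Gja4 in APAP_MSC over CTRL was lost without either CTRL library, APAP_MSC replicate 1 or APAP_MSC replicate 3, at 1.22 to 1.46.

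TGF-beta signalling genes, which lie upstream of Klf10 and Klf11, had 1 higher and 1 lower of 16 in APAP_PBS over CTRL, near the 4.29% and 5.97% of all genes. Skil, a feedback repressor of the pathway, rose from 14.7 ± 3.34 to 31.8 ± 6.90 CPM, by 1.12 ± 0.21 (edgeR, adjusted p = 0.00927). Tgfbr2, the type II receptor, fell by 0.78 ± 0.21 (adjusted p = 0.0407) and, in APAP_MSC over CTRL, by 0.86 ± 0.21 (adjusted p = 0.04). Its CTRL libraries differed, at 34.7 and 60.9 CPM, and its APAP libraries lay between 24.9 and 33.0 CPM. Without CTRL replicate 2 the values for Tgfbr2 were -0.31 and -0.38 and neither passed. The call was also lost without any 1 of several APAP libraries, at -0.71 to -0.79 in APAP_PBS and -0.83 to -0.88 in APAP_MSC. Both Tgfbr2 calls were lost with library size alone (-0.56 and -0.69) and with limma on either FPKM scale (-0.44 to -0.61). The same held with the 2 groups alone (-0.80 and -0.86) and with the replicate block (-0.75 and -0.83). Skil did not pass without CTRL replicate 2, at 0.90. Of 10 reported Klf6 targets only Tgfbr2 passed in the edgeR fit of all libraries, in both comparisons with CTRL. Col1a1 passed as higher in APAP_PBS over CTRL with library size alone (0.97) and without APAP_MSC replicate 2 (0.75). DESeq2 also called 1 target higher in each comparison with CTRL, Cdkn1a. At an unadjusted p under 0.05, 3 were higher in APAP_PBS and 1 in APAP_MSC, against 13.4% and 10.6% of all genes. Cdkn1a, one of these targets and an inhibitor of cyclin-dependent kinases, was at 3.28 and 2.40 CPM in CTRL, at 28.7 to 35.1 CPM in APAP_PBS and at 32.0, 3.71 and 12.0 CPM in APAP_MSC, again lowest in replicate 2. For APAP_PBS over CTRL its log2 fold change was 3.47 ± 0.98 (SE) and did not pass (edgeR, adjusted p = 0.0879). It passed with the 2 groups alone (3.46, adjusted p = 2.54e-05), without APAP_MSC replicate 1 (adjusted p = 0.0149) or replicate 2 (adjusted p = 0.00727), with DESeq2 (3.43, adjusted p = 0.000746) and with limma on log2(FPKM + 1) (2.94, adjusted p = 0.0426). In APAP_MSC over APAP_PBS 0 of the 10 targets passed in edgeR or DESeq2 and 0 had an unadjusted p under 0.05. Of the 16 TGF-beta genes 0 passed in the edgeR fit of all libraries, and 1 was lower in DESeq2 (Skil, -1.11). Skil was also lower in edgeR with the replicate block (-1.10). At an unadjusted p under 0.05, 1 was higher and 4 lower, against 2.92% and 3.69% of all genes.

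Genes of glucocorticoid and thyroid hormone response, to which Klf9 belongs, had 3 higher and 2 lower of 11 in APAP_PBS over CTRL, against 4.29% and 5.97% of all genes. Fkbp5, a chaperone of the glucocorticoid receptor, rose by 2.05 ± 0.37 (adjusted p = 0.0166), Per1, a clock gene, by 2.86 ± 0.67 (adjusted p = 0.0451), and the kinase Sgk1 by 1.01 ± 0.17 (adjusted p = 0.0056), all by edgeR. The thyroid hormone targets Dio1 and Thrsp fell, with Dio1, the deiodinase, at -1.65 ± 0.26 (adjusted p = 0.00721) and Thrsp, a lipogenic regulator, at -4.16 ± 0.56 (adjusted p = 0.00864). Fkbp5, Sgk1, Dio1 and Thrsp also passed in APAP_MSC over CTRL, in the same directions, at 1.97, 0.98, -1.65 and -3.36. Dusp1 and Tsc22d3, of the same list, did not pass in the edgeR fit of all libraries. For APAP_PBS over CTRL, Dusp1 passed as lower with the 2 groups alone, at -0.76 (edgeR, adjusted p = 0.00493). Without APAP_MSC replicate 2 it was -0.74 and, for APAP_MSC over CTRL, -1.91, and both passed. Tsc22d3 passed as higher than CTRL in DESeq2, at 0.76 in APAP_PBS and 0.69 in APAP_MSC. Fkbp5 lost both calls without either CTRL library or APAP_PBS replicate 1, and the second also without APAP_MSC replicate 3, at 1.86 to 2.20 in all. Per1, at 0.712 and 4.09 CPM in CTRL, lost its call without any 1 library other than CTRL replicate 2 and APAP_MSC replicate 2, at 2.20 to 3.04. In APAP_MSC over CTRL, Dio1 and Thrsp lost the call without either CTRL library or APAP_MSC replicate 1, at -1.57 to -1.64 and -3.15 to -3.41, and Sgk1 without CTRL replicate 1, at 0.86. Of 9 genes of amino acid breakdown and glucose output, the process that Klf15 drives, 1 was higher and 1 lower in APAP_PBS over CTRL, against the same shares of all genes. Pck1, which commits carbon to glucose output, rose by 1.91 ± 0.41 (adjusted p = 0.0281), a call lost without CTRL replicate 1, APAP_PBS replicate 1 or 3, or APAP_MSC replicate 1, at 1.45 to 1.91. The Pck1 call was also lost with the 2 groups alone (1.89), the replicate block (2.01) and no low-count filter (1.91). G6pc, of the same list, ran the other way but did not pass in the edgeR fit of all libraries. For APAP_PBS over CTRL it passed as lower in DESeq2 (-1.90), with the 2 groups alone (-1.90) and without APAP_MSC replicate 2 or 3 (-1.88). For APAP_MSC over CTRL it passed as lower in DESeq2 (-1.69), which called Pck1 higher, and without APAP_MSC replicate 2 (-2.29). Prodh, the proline dehydrogenase, fell by 1.02 ± 0.11 (adjusted p = 0.000481), and in APAP_MSC over CTRL by 1.11 ± 0.11 (adjusted p = 0.000342). In APAP_MSC over APAP_PBS 0 genes of either list passed in edgeR or DESeq2, and 0 had an unadjusted p under 0.05.

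The series title names miR-186-5p, whose mature form is given because its seed can be read against the members' 3' UTRs; capitals mark the seed, bases 2 to 8.
miR-186-5p: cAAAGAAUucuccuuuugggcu
The letters that pair with the seed, ATTCTTT, occur in the 3' UTR of 4 of the 10 members, by GENCODE M21 transcripts, and in 18.6% of 12607 tested genes. The matches are in Klf3, Klf9, Klf10 and Klf12, shown with capitals on the match.
Klf3 site: agtctcttagtATTCTTTtgtttggttgtt
Klf9 site: caaggctttttATTCTTTgtgataagtcct
Klf10 site: tttgcagtgtgATTCTTTcaaaggattggt
Klf12 site: aatcagagtttATTCTTTaccattgcctgt

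The 3' UTR of Klf6, 3111 bases long, holds 0 such matches, and that of Klf3, 3743 bases long, holds 1. Long 3' UTRs hold more matches by length alone; the median tested gene has 981 bases and Klf12 has 4501. Of the 4 members with a match, Klf3 was the one whose APAP_MSC libraries lay below all APAP_PBS libraries, at -0.58 on the log2 scale, while Klf9, Klf10 and Klf12 were at -0.17, 0.10 and -0.08. Klf6 and Klf4, whose APAP_MSC libraries also lay below all APAP_PBS libraries, at -1.19 and -0.74, hold 0 matches. Over all tested genes the median log2 fold change of APAP_MSC over APAP_PBS was -0.05 for the 2344 with a match and 0.00 for the 10263 without. A match is a description of the letters, and binding was not measured.

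Markers of other cell types were read beside the level of Klf6. The summed CPM of 8 neutrophil markers was 2.35 to 2.92 in CTRL, 4.86 to 23.7 in APAP_PBS and 3.39 to 5.25 in APAP_MSC; 2 of the 5 tested, S100a8 and Retnlg, rose in APAP_PBS over CTRL, while Ly6g was at 0 in 7 of the 8 libraries and Camp in 7. That of 8 monocyte and macrophage markers was 112 to 176, 156 to 277 and 119 to 169 CPM, with 2 of 8, Cd68 and Ccr2, higher in APAP_PBS over CTRL. Kupffer cell markers, 5 genes, summed to 173 to 233, 161 to 266 and 160 to 269 CPM. Hepatocyte markers summed to 111000 to 126000, 86500 to 102000 and 96200 to 103000 CPM, with 1 of 8, Ttr, lower in APAP_PBS over CTRL. Stellate cell markers, 7 genes, summed to 257 to 261, 236 to 254 and 240 to 246 CPM, with Des higher and Colec11 lower in APAP_PBS over CTRL. Cholangiocyte markers, 5 genes, summed to 50.8 to 84.2, 73.7 to 93.3 and 52 to 58.2 CPM, with Sox9 higher in that comparison. T and NK cell markers reached at most 2.91 CPM and B cell markers 12.6 CPM. The part of these cells in the level of Klf6 was not tested.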

How the data were processed

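Liver mRNA, enriched with oligo(dT), was sequenced in 8 libraries. The authors deposited 1 table with an estimated count and an FPKM (fragments per length and depth) per gene and library, per the file headers; 6.39% to 7.46% of the counts are not whole, and they were rounded. The submitters' processing notes name fastp 0.18.0 for the reads. The aligner, quantifier, build and annotation: not given in the sources used here. Ensembl IDs were matched to GENCODE M21 symbols (22128 of 22183).

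Rounded counts were fitted with edgeR 4.0.16 (TMM scaling, filterByExpr, robust quasi-likelihood test) on R 4.3.3, with 1 coefficient per group and Benjamini-Hochberg adjustment over 12722 genes, calling at adjusted p under 0.05. The 3 comparisons share groups. Alternatives used DESeq2 1.42.0, limma 3.58.1 on log2(FPKM + 1) and log2(FPKM + 0.1), other scalings and filters, the replicate block, the 2 groups alone, and each library left out. Libraries of 1 group differed beyond sampling noise, so none was counted as a duplicate. The script was tested on simulated data.

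The members and the gene lists were chosen with earlier results of these data known. Named genes were the members, all other Klf and Sp factors, up to 4 called genes per list with the smallest adjusted p, and the 5 genes most and the 5 least like Klf6 (mean of at least 5 CPM). One of these genes is not reported here. Cdkn1a, Col1a1, Ctbp1, Sin3a, Hdac2, Mapk7, G6pc, Dusp1, Tsc22d3 and the marker genes outside that rule were named after their values were seen. Sequences are RefSeq's (promoters, miRNA) or from GENCODE M21 transcripts (3' UTR sites). Intervals for single counts are not given; the level of 3 counts covers counting error only.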

Additional observations from a re-analysis of the deposited data

How the results depend on the processing

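Of the 3 members called higher in APAP_PBS over CTRL, Klf6 lost the call without either CTRL library, Klf3 without CTRL replicate 1 or APAP_PBS replicate 1 and with the replicate block (0.61), and Klf13 without CTRL replicate 1 or any 1 APAP_PBS library. Klf13 in APAP_MSC over CTRL was also lost when only the 2 groups were fitted (0.70). Deviations of same-numbered libraries from their group means correlated at -0.14 to 0.19. With 2 or 3 libraries per group, and no other pairs as a reference, these values cannot decide whether the replicate numbers pair libraries. Counts of Klf4 (9 to 33) and Klf2 (24 to 112) are the lowest of the members. Each library is assumed to vary like the other groups where 1 CTRL library remains.

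The count of members higher in APAP_PBS over CTRL was 5 with limma on log2(FPKM + 1), 6 with log2(FPKM + 0.1), and 1 to 3 with a library left out; the count lower was 0 to 1. With library size alone 4 members were higher in APAP_PBS over CTRL. DESeq2 called 2 members lower in APAP_MSC over APAP_PBS. In APAP_MSC over CTRL, library size alone called 2 higher and the 2 groups alone 0, and leaving out a library gave 0 to 1 higher and 0 to 1 lower.

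Over all genes, APAP_PBS over CTRL had 546 higher and 760 lower. These became 1620 and 371 with library size alone, 333 and 460 with the replicate block, 1188 and 326 with limma on log2(FPKM + 1), 1366 and 332 with log2(FPKM + 0.1), and 175 to 790 and 303 to 920 with a library left out. Library size alone and FPKM moved the median of all genes from 0.03 to 0.27 and 0.26 and the share of calls that were higher from 41.8% to 81.4% and 80.4%. For APAP_MSC over APAP_PBS, 0 and 1 became 17 and 24 in DESeq2, 0 lower with the 2 groups alone and with limma on either FPKM scale, and 0 to 1 each with a library left out. For APAP_MSC over CTRL, 321 and 422 became 755 and 236 with library size alone, 519 and 698 in DESeq2, 135 and 186 with the replicate block, 124 and 170 with the 2 groups alone, 498 and 207 with limma on log2(FPKM + 1), 599 and 206 with log2(FPKM + 0.1), and 119 to 657 and 141 to 733 with a library left out. The cause of these changes was not tested.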

Other observations

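The ratio of deposited count to FPKM, which follows the transcript length that the authors' quantification used, was not constant for every member. Between libraries it differed by 2.32-fold for Klf4, 1.44-fold for Klf6, 1.26-fold for Klf3 and 1.11-fold for Klf10, and by 1.00-fold for Klf2, Klf9 and Klf11. Of genes with at least 200 counts, 97.3% differed less than Klf6 and 90.8% less than Klf3.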
